A study of Mus musculus with 9 samples.

Results

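The FOS and JUN genes encode the subunits of AP-1, a transcription factor made of 2 proteins that bind DNA together. The 7 genes described here, Fos, Fosb, Fosl1, Fosl2, Jun, Junb and Jund, were taken by their symbols from the 23607 genes counted in each mouse. Their mRNAs were measured in the olfactory epithelium (OE) of 9 C57BL/6 mice after immunoprecipitation of ribosomes that carry phosphorylated S6 (pS6-IP) and RNAseq. The mice formed 3 groups of 3, namely controls given distilled water, mice given 1% heptanal and mice given 100% heptanal, an aldehyde odorant. Every mouse was alone in a closed container for 1 hr with the liquid on filter paper. Each group held 1 mouse of postnatal day 22, 1 of postnatal day 21 and 1 of postnatal day 18. The study's methods state that mice set against each other were littermates of the same sex. Values below are given in that order of days. The question was which of the FOS and JUN mRNAs were recovered at another level after the odor, and at which concentration.

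AP-1 is either a FOS protein joined to a JUN protein or a pair of JUN proteins, since FOS proteins do not pair with each other. Fos, Fosb, Jun and Junb are immediate early genes, which means that preexisting factors such as CREB and SRF can switch them on within minutes of calcium entry or kinase activity, with no new protein needed. In olfactory sensory neurons (OSNs), an odorant opens channels that let calcium in, and Fos mRNA has long been used as a mark of stimulated cells. S6 is a ribosomal protein that is also phosphorylated in active neurons, so the pS6-IP takes up mRNAs, immediate early ones included, from such cells and from any other cell with phosphorylated S6.

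The start regions of the members that stood apart from controls at 100% heptanal, Fos, Fosb and Junb, are shown first, with that of Jun beside them because it holds another element of this kind. The sequences are from RefSeq, GRCm38.p6, on the strand of the gene, and capitals mark matches to TGACG, the core of the cAMP response element that CREB binds, to TATAAA, the TATA box, or to TGACATCA, an AP-1 site variant. The line for Fos gives chr12:85473740-85473889 on the plus strand, the 150 bases just before its start, with TGACG from base -129 to -125 and from -66 to -62, and TATAAA from -33 to -28. The other lines give 30 bases around the element nearest the start, at chr7:19310088-19310117 for Fosb, chr8:84978837-84978866 for Junb and chr4:95052250-95052279 for Jun, all on the minus strand.
Fos: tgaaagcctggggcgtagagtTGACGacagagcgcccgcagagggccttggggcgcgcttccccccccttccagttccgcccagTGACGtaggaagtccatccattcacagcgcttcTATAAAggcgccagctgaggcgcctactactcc
Fosb: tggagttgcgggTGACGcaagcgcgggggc
Junb: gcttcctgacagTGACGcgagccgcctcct
Jun: aaagcctcggggTGACATCAtgggctattt
In the 250 bases before the start, 3 of the 6 members with a RefSeq promoter entry held TGACG on either strand, and those were Fos, Fosb and Junb. Of all 32851 promoters of the same length, 17.8% held it. TGACGT, which contains TGACG, was found in Fos and in 6.47% of all promoters, and TGACATCA in Jun and in 2.93%. TATAAA, searched on the strand of the gene only, was found in Fos and in 7.59%. The full element TGACGTCA, the AP-1 site TGACTCA and the CArG box of SRF were in none of the 6 windows and in 1.55%, 4.46% and 1.47% of all promoters. These matches are letters in a window and were not measured as bound sites, and Fosl1 had no entry. Elements further than 250 bases before the start, a CArG box included, were not searched for and may exist.

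In GENCODE annotation of GRCm38, Fos lies at chr12:85473890-85477273 and Fosb at chr7:19302696-19310051, and neither overlaps another gene. Fosl2, at chr5:32135801-32157842, does not either. Fosl1 (chr19:5447547-5455946) overlaps Ccdc85b and Junb (chr8:84974484-84978718) overlaps Prdx2, both on the opposite strand. Jun (chr4:95049034-95052222) and Jund (chr8:70698949-70700616) overlap the antisense genes Junos and Gm11175. The library kit did not mark strand, so reads of these overlapping genes cannot be told apart. Between 18.8% and 24.8% of the Jund count per mouse came from reads that mapped to several places, and at most 0.685% for any other member, so only the Jund count rests to that degree on how such reads were assigned.

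The total estimated count per mouse was between 5438494 and 9707592. Levels are given as CPM, counts brought to a common library size, with a correction (TMM) computed from the bulk of genes. All 7 members passed the filter on low counts and were among the 14930 genes tested with edgeR, with the postnatal day as a block. Each p was adjusted over all genes tested, and a gene is said to have risen or fallen where the adjusted p was under 0.05. The 3 comparisons share mice and are not independent of each other.

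After 100% heptanal Fos and Fosb rose, and no other member passed the test. Fos rose 6.57-fold and Fosb 31.6-fold against control, and their levels at 100% heptanal lay above those of every other mouse. Junb was also higher in each 100% mouse than in any control, but missed the threshold. At 1% heptanal no member passed the test. Fosb, Fosl1 and Jund were above control on each postnatal day. Of these only Fosb had all 1% mice above all controls, as had 2.28% of all genes tested. Of the 7 members 2 rose and 0 fell at 100% heptanal against control, where 0.322% of all genes tested rose and 0% fell.

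**Figure D1:**
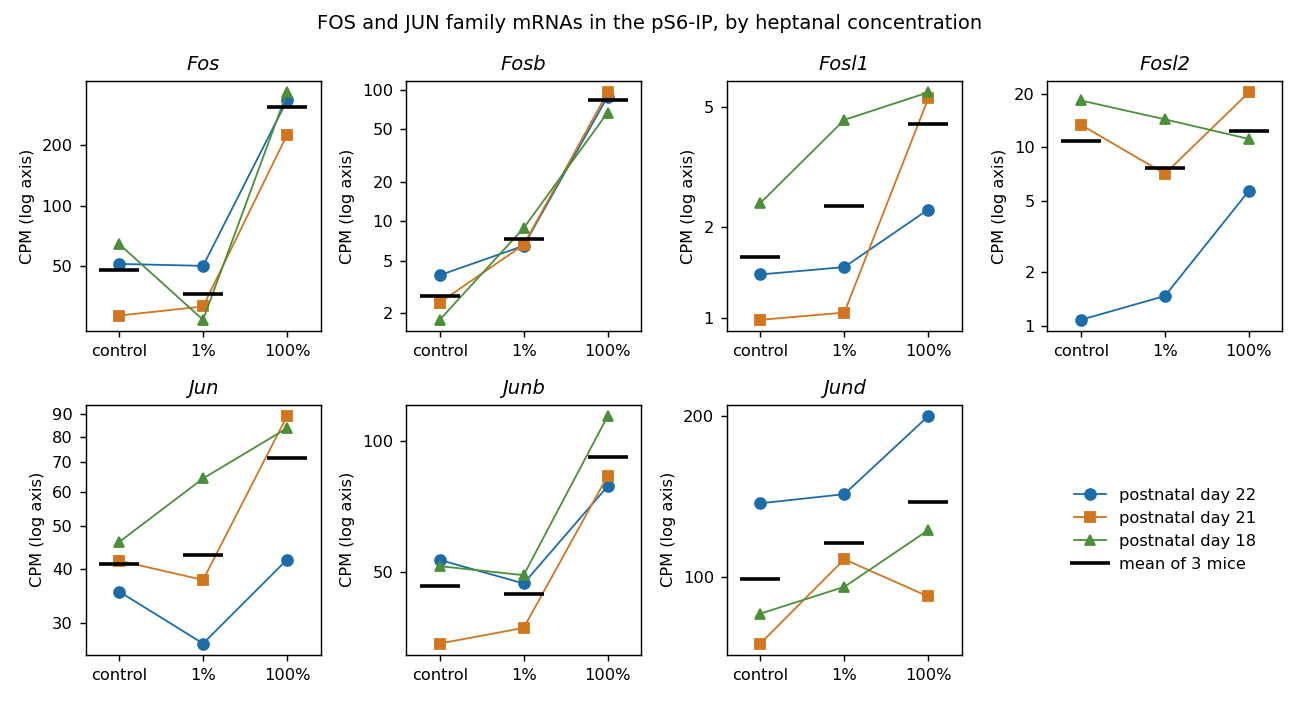
Level of each FOS and JUN mRNA in every mouse (CPM, log axis) in control, 1% and 100% heptanal. Lines join mice of the same postnatal day and black bars are means of 3 mice; at 100% heptanal Fos lies between 226 and 368 CPM and Fosb between 67.1 and 95.6 CPM, above all 6 other mice.

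Fos encodes the FOS protein c-Fos. Its level was 51.3, 28.3 and 64.5 CPM in controls, 50.1, 31.4 and 27.0 CPM at 1% heptanal and 335, 226 and 368 CPM at 100% heptanal. The 100% mice did not overlap with the others, while control and 1% mice overlapped. The mean was 48.0 ± 18.3 CPM (SD, n = 3) in controls, 36.2 ± 12.3 at 1% and 310 ± 74.4 at 100%. Within a postnatal day, the 100% mouse had 6.54, 7.97 and 5.70 times the Fos level of its control. The log2 fold change was 2.72 with a standard error (SE) of 0.26 in edgeR's quasi-likelihood test (adjusted p = 0.0068). Against 1% heptanal it was 3.09 (SE 0.26, adjusted p = 0.00431). The Fos call against control was lost without the control mouse of postnatal day 22 (adjusted p = 0.117) or that of postnatal day 21 (0.0658), and also without all mice of day 22 (0.0687) or of day 21 (0.127), with a log2 fold change of 2.54 or more in each case. It was also lost without the block (adjusted p = 0.145), where the log2 fold change was 2.69.

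Fosb encodes FosB and, by splicing, the shorter and long-lived ΔFosB, which the gene counts do not separate. Its level was 3.87, 2.40 and 1.77 CPM in controls, from 25, 17 and 14 counts. At 1% heptanal it was 6.49, 6.60 and 8.86 CPM, from 44, 38 and 90 counts. At 100% heptanal it was 88.9, 95.6 and 67.1 CPM, from 778, 682 and 589 counts. The 3 groups did not overlap with each other, and Fosb had the lowest p of all genes tested at 100% heptanal against control. Within a postnatal day the 100% mouse had 23.0, 39.9 and 37.9 times the level of its control. The log2 fold change was 4.98 (SE 0.32, adjusted p = 0.00136 by edgeR's quasi-likelihood test). Leaving out any 1 mouse or all mice of a day gave 4.76 to 5.34, and the call against control was kept in each of these fits. Against 1% heptanal the log2 fold change was 3.48 (SE 0.29, adjusted p = 0.00431), but without the 100% mouse of postnatal day 21 the calls of Fosb (adjusted p = 0.0549) and of Fos (0.0535) in that comparison were both lost, as they were without all mice of day 21 (0.150 and 0.0744). Fos against 1% heptanal was also lost without the mice of day 22 (adjusted p = 0.0589) and without the block (0.103).

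Fosl1 and Fosl2 encode the FOS proteins FRA1 and FRA2, which lack the strong activation domain of c-Fos. Fosl1 was 1.39, 0.986 and 2.40 CPM in controls, 1.47, 1.04 and 4.53 CPM at 1% heptanal and 2.29, 5.33 and 5.58 CPM at 100% heptanal. These levels rest on 6 to 49 counts per mouse, and the 100% mice overlapped with both other groups. The log2 fold change of Fosl1 at 100% heptanal against control was 1.496 (SE 0.61, adjusted p = 0.442). Fosl2 was 1.08, 13.4 and 18.3 CPM in controls, 1.47, 7.12 and 14.4 CPM at 1% and 5.72, 20.3 and 11.2 CPM at 100% heptanal. In each group the mouse of postnatal day 22 had the lowest Fosl2 level. The ratio of 100% heptanal to control was 5.27, 1.52 and 0.609 on the 3 days, and the log2 fold change was 0.66 (SE 0.52, adjusted p = 0.713). It was 0.12 without the 100% mouse of postnatal day 22, 0.22 without the control mouse of that day, 0.014 without both and their 1% littermate, and 1.31 without the 100% mouse of postnatal day 18. That of Fosl1 was 0.89 without the 100% mouse of postnatal day 21 and 1.85 without all mice of postnatal day 22.

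Junb encodes JunB, a partner of FOS proteins that is, like the product of Jun, an immediate early product. It was 53.4, 34.4 and 51.7 CPM in controls, 47.2, 37.3 and 49.3 CPM at 1% heptanal and 78.8, 83.2 and 114 CPM at 100% heptanal. All 3 mice at 100% were above all 6 others. The ratio to control was 1.47, 2.42 and 2.21 on the 3 days. The log2 fold change was 0.99 (SE 0.18, adjusted p = 0.0697) and missed the threshold, while DESeq2 with the same block gave 0.99 with an adjusted p of 0.00139. DESeq2 called 3 of the 7 members higher, Fos, Fosb and Junb, where it called 1.54% of all genes higher. Without the block edgeR called 1 member higher, Fosb, and 0.0134% of all genes.

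Jun encodes c-Jun, the main JUN partner of c-Fos. It was 35.5, 41.7 and 46.0 CPM in controls, 27.0, 37.7 and 64.3 CPM at 1% heptanal and 42.0, 89.2 and 83.7 CPM at 100% heptanal. The mice of postnatal days 21 and 18 at 100% were above all other mice, and that of day 22 lay within the range of controls. The log2 fold change was 0.74 (SE 0.23, adjusted p = 0.295). Jund encodes JunD, which is made in most cells at rest and is the least inducible of the JUN genes. It was 137, 75.0 and 85.3 CPM in controls, 143, 108 and 95.8 CPM at 1% heptanal and 200, 91.9 and 122 CPM at 100% heptanal. The mouse of postnatal day 22 was the highest in each group, and the groups overlapped. The log2 fold change of Jund was 0.46 (SE 0.16, adjusted p = 0.364).

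Counted by position alone, the 100% mice lay above all controls for 3 of the 7 members, Fos, Fosb and Junb, and for 5.96% of all genes. Before adjustment, 6 of the 7, all but Fosl2, were higher with a p under 0.05 in the edgeR test, against 6.63% of all genes. Against 1% heptanal the 100% mice were above for the same 3 members and for 4.74% of all genes. In that comparison 2 members rose and 0 fell after adjustment, against 0.0804% and 0% of all genes, and 4 had an unadjusted p under 0.05 (Fos, Fosb, Jun and Junb), against 6.74%.

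**Figure D2:**
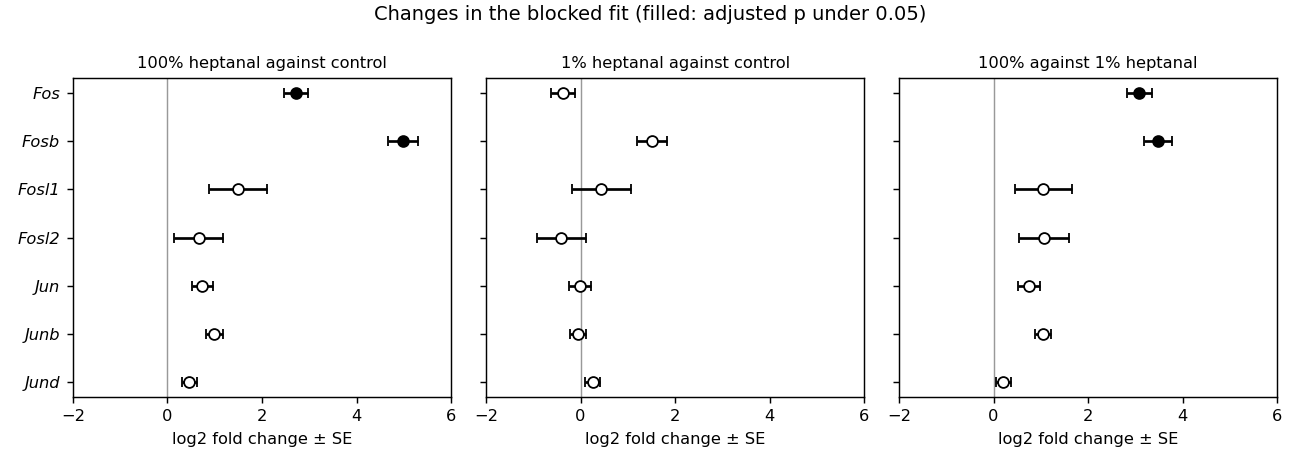
Log2 fold change with its standard error for each member in the 3 comparisons, from the edgeR fit with the postnatal day as a block; filled points passed the adjusted threshold. Fos and Fosb are filled in both comparisons that involve 100% heptanal, and no point is filled for 1% heptanal against control.

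At 1% heptanal, 0 of the 7 members rose and 0 fell after adjustment, and so did 0% of all genes in either direction. Fosb was the 1 member with an unadjusted p under 0.05, as were 1.32% of all genes among those higher, and the 1 member whose 1% mice were all above controls, as were 2.28% of all genes. The Fosb ratio to control was 1.68, 2.76 and 5.01 on the 3 days. Its log2 fold change was 1.51 (SE 0.32) and ranked 6 by p among all genes tested, with an adjusted p of 0.999674 in edgeR's quasi-likelihood test and of 0.125 in DESeq2. For Fos the log2 fold change was -0.37 (SE 0.25), and the 1% mouse was above its control on 1 of 3 days. For Jun it was -0.0092 (SE 0.23) and for Junb -0.050 (SE 0.18). For Jund it was 0.26 (SE 0.16), for Fosl1 0.44 (SE 0.62) and for Fosl2 -0.41 (SE 0.52). The errors of Fos, Jun, Junb, Jund, Fosl1 and Fosl2 leave room for changes of either sign.

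The fold changes of Fosb were above those of Fos at both concentrations, so their ratio was compared within days. The CPM of Fosb divided by that of Fos was 0.0755, 0.0846 and 0.0275 in controls. It came to 0.129, 0.210 and 0.328 in the 1% mice and to 0.265, 0.424 and 0.182 in the 100% mice. It was higher at 100% heptanal than in control by 3.51, 5.01 and 6.65 times within the 3 days. At 1% heptanal it was higher by 1.71, 2.48 and 11.97 times. An exact sign-flip permutation test over the 3 days gave p = 0.25 for each, the smallest that 3 pairs allow with a two-sided test. It could therefore not reach a p under 0.05, and nothing is concluded from it. The ratio at 100% heptanal was 2.05, 2.02 and 0.556 times that at 1% on the 3 days. In controls the ratios rest on 14 to 25 Fosb counts per mouse. The value of 11.97 on postnatal day 18 came with a Fos level of 27.0 CPM at 1% heptanal against 64.5 CPM in its control.

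To compare levels between genes, CPM was divided by the length of each gene's RefSeq exons in kb. Reverse transcription began from a poly-T primer, and whether counts grow with exon length was not tested. The order of genes depends on this division. By mean CPM alone, Fos (48.0) was above Junb (46.5) in controls. At 100% heptanal Jund (138) was above Junb (92.0), and Fosb (83.9) above Jun (71.6). In controls Jund was the most abundant at 34.5 ± 11.6 CPM per kb (SD, n = 3), followed by Junb at 25.3 ± 5.72, Fos at 22.8 ± 8.67 and Jun at 12.9 ± 1.66. Fosl2 was at 1.86 ± 1.51, Fosl1 at 0.935 ± 0.427 and Fosb at 0.709 ± 0.286 CPM per kb. Jund, Junb and Fos did not differ from their neighbours beyond the SDs, nor did the lowest 3. At 1% heptanal Fosb, at 1.94 ± 0.354 CPM per kb, stood above Fosl1 at 1.38 ± 1.11 and Fosl2 at 1.31 ± 1.10, within their spread. At 100% heptanal Fos came first at 147 ± 35.3 CPM per kb, ahead of Junb at 49.99 ± 10.4 and Jund at 48.0 ± 19.4. Fosb, at 22.2 ± 3.96, was then at the level of Jun, at 22.5 ± 8.11.

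The summed level of the family was 98.9 ± 21.2 CPM per kb in controls, 99.6 ± 11.2 at 1% heptanal and 294 ± 44.3 at 100% heptanal. Fos made up 18.0% to 28.4% of this sum in controls, 12.7% to 21.5% at 1% and 43.9% to 53.1% at 100%. The Fosb share was 0.435% to 0.898% in controls, 1.56% to 2.33% at 1% and 5.42% to 10.4% at 100%. The Jund share was 27.5% to 41.8% in controls and 12.96% to 22.4% at 100%, while its own level was not lower. The sum thus held mostly JUN mRNA in the 6 mice of the lower concentrations and mostly FOS mRNA in the 3 mice at 100% heptanal.

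**Figure D3:**
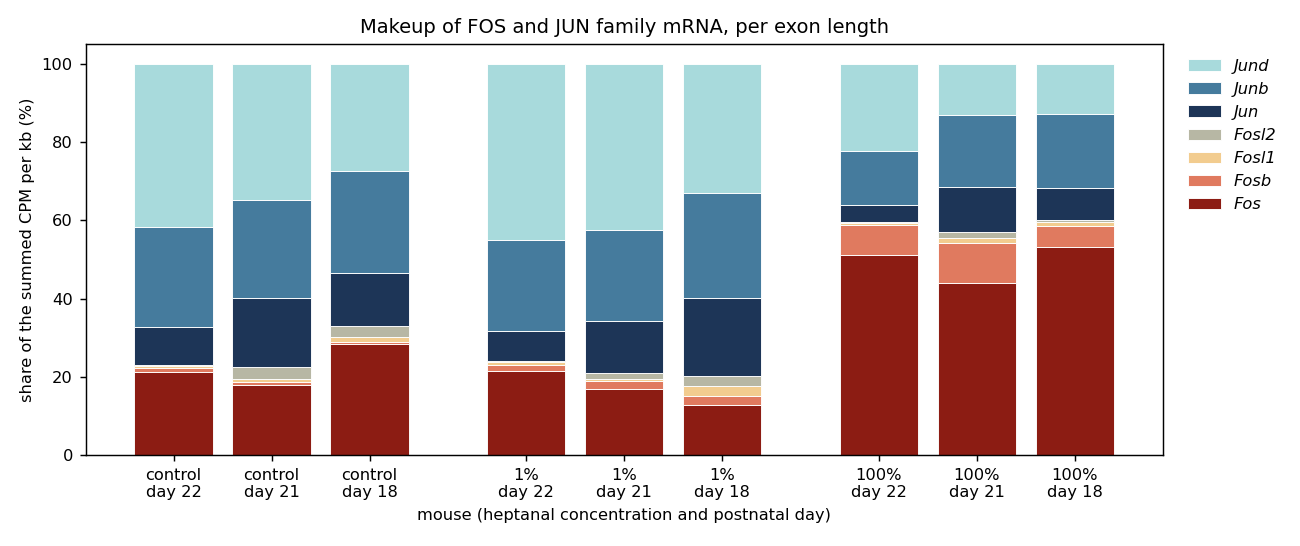
Share of each gene in the summed FOS and JUN level (percent of CPM per kb of exon), 1 bar per mouse, ordered by heptanal concentration and postnatal day. Fos covers 43.9% to 53.1% of the bar in the 3 mice at 100% heptanal and at most 28.4% in the other 6.

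The pS6-IP of mice at 100% heptanal also held more mRNA of mature OSNs. The summed level of 10 mature OSN markers was 4949 to 10206 CPM in controls, 7269 to 9804 at 1% heptanal and 12184 to 17306 at 100%. In the comparison of 100% heptanal with control all 10 were above 0 on the log2 scale, the median being 0.78 where that of all genes was -0.0022, and 2 rose, Omp (1.11, adjusted p = 0.0311) and Stoml3 (1.22, adjusted p = 0.0231), where 0.322% of all genes did. Both calls were lost without any 1 control or 100% mouse or the mice of any day, with an adjusted p of at most 0.312, and without the block. The sum of 10 sustentacular and Bowman gland markers was 7146 to 8295 CPM in controls and 9667 to 11778 CPM at 100%, with 0 of 10 called. Ensheathing glia markers summed to 486 to 580 CPM in controls and 343 to 485 at 100%, with 0 of 6 called. The sums of basal cell markers (127 to 171 CPM at 100%, 167 to 248 in controls) and of stromal, endothelial and blood markers (2717 to 9662 and 3323 to 15592) overlapped between these groups, but were lower at 100% on each of the 3 days. Those of respiratory markers (2430 to 5110 and 1603 to 3180) overlapped too and were higher on each day. Such sums follow their most abundant genes, such as Bpifa1 of the respiratory list and Cyp2a5 of the sustentacular list (means of 2288 and 3788 CPM). Single genes went both ways at 100% heptanal against control. The sustentacular list ran from -0.72 to 1.46 on the log2 scale (8 of 10 above 0). The stromal, endothelial and blood list ran from -0.93 to 1.31 (2 of 7 above 0). The immature OSN, microvillous and immune sums overlapped and moved in different directions on different days. In all these lists 0 genes were called in either direction, and the part of other cells in the results for Fos and Fosb was not tested beyond these values. Scgb1a1, of the respiratory list, was at 0 in all 9 mice and Chat, a marker of microvillous cells, in 7. All 9 libraries are pS6-IP, with no library of the input RNA among them. The number of cells of a type, their RNA per cell and the part of their ribosomes with phosphorylated S6 cannot be told apart in these samples.

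Scaled to 5 of the OSN markers (Omp, Adcy3, Ano2, Cnga2 and Gnal) in place of the library, Fos and Fosb still rose. These 5 summed to 2.01, 1.71 and 2.49 times the control of the same day at 100% heptanal. The sum was mostly Omp, with a mean of 6813.5 CPM. The means were 1081 CPM for Gnal, 331 for Adcy3, 272 for Cnga2 and 117 for Ano2. This scale therefore rests mainly on Omp, which itself rose at 100% heptanal, and scaling by each marker alone was not tested. Per count of them, Fos was 3.26, 4.66 and 2.29 times its control and Fosb 11.5, 23.4 and 15.2 times. In the edgeR fit on this scale the log2 fold change was 1.65 for Fos (adjusted p = 0.00214) and 3.97 for Fosb (adjusted p = 0.000824). On this scale 2 of the 7 members and 0.322% of all genes rose, and the median of all genes lay at -1.04. Junb, at 1.47 to 2.42 times control per library, was at 0.735, 1.42 and 0.885 times per OSN marker count (log2 fold change -0.049). Jund fell by 0.58 on the log2 scale (adjusted p = 0.0411), as the 1 member of 7 that did, where 64.9% of all genes fell. At 1% heptanal Fosb was 1.43, 2.83 and 3.45 times control per OSN marker count.

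**Figure D4:**
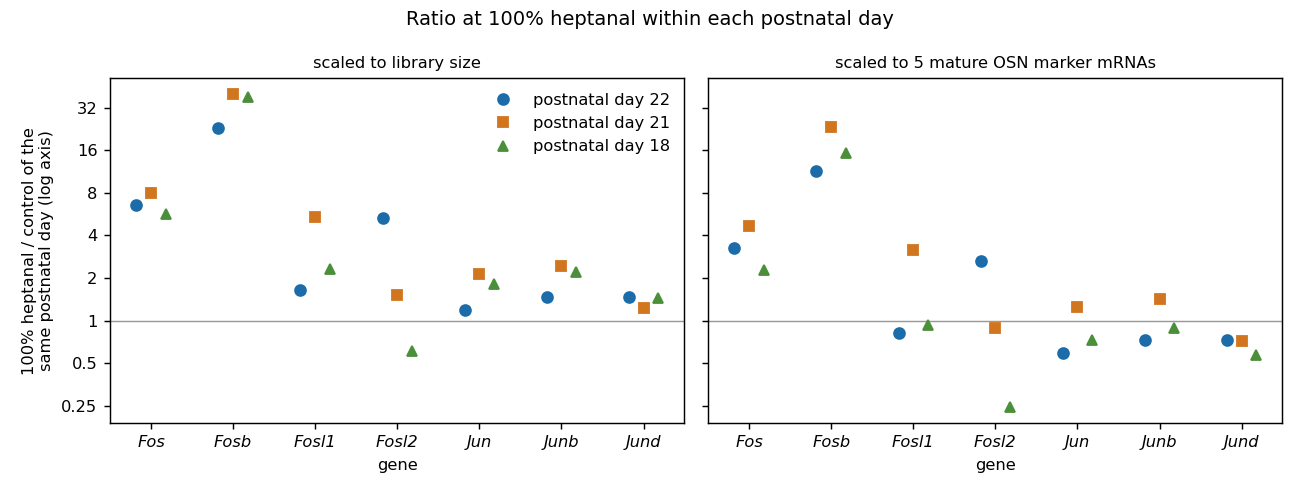
Ratio of 100% heptanal to the control of the same postnatal day (log axis) for each member, with 1 point per day. Values are scaled to library size on the left and to the sum of 5 mature OSN marker mRNAs, mostly Omp, on the right. Fos and Fosb stay above 1 on all days on both scales (lowest 2.29 and 11.5 on the right), while Junb spans 0.735 to 1.42 on the right.

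The genes around AP-1 were described by lists of known function. These lists were chosen with earlier results of these data known, so their counts are not independent of the data. Of 18 other immediate early genes tested, 3 rose at 100% heptanal against control and 0 fell, and the median log2 fold change was 0.49, where 0.322% of all genes rose with a median of -0.0022. Egr1, a zinc finger factor, rose by a log2 fold change of 2.98 (adjusted p = 0.00136), the nuclear receptor Nr4a1 by 2.18 and the growth inhibitor Btg2 by 1.76 (adjusted p = 0.00695 for each). Before adjustment 8 of the 18 were higher with a p under 0.05, as were 6.63% of all genes. Egr1 lost its call without the control mouse of postnatal day 22 (adjusted p = 0.0602). Btg2 lost it without any 1 control mouse, the 100% mouse of day 21 or all mice of day 21 or 18, and Nr4a1 without any 1 control mouse or all mice of any day (adjusted p at most 0.207 and 0.143). Without the block all 3 were lost. The same 3 passed the test against 1% heptanal, with log2 fold changes of 2.91 for Egr1, 2.19 for Nr4a1 and 1.82 for Btg2. Of 12 fits that left out mice, this call was kept in 10 for Egr1, in 6 for Nr4a1 and in 7 for Btg2. All 3 lost it without the mice of day 21. Egr1 also lost it without those of day 22, Btg2 without those of day 18, and Nr4a1 without those of day 22 or 18. Of the 18, 0 passed at 1% heptanal against control. There the lowest p was that of Npas4, which had no count in 2 of 3 controls, and the next that of Arc, at 4.42 to 7.12 CPM in controls and 1.47 to 3.47 CPM at 1% heptanal (adjusted p = 0.999674 for both).

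No gene passed the test, in any of the 3 comparisons, among the leucine zipper partners of FOS and JUN proteins (11 of 14 tested), the factors that act at the Fos promoter (16 tested), the upstream kinases (24 tested) and the genes for turnover of FOS and JUN mRNA or protein (10 tested). Their median log2 fold changes at 100% heptanal against control were 0.07, -0.05, -0.02 and -0.02. Among the partners the lowest p at 100% heptanal belonged to Maff (0.73, adjusted p = 0.394) and to the stress-induced Atf3, whose log2 fold change of 0.98 came with 2 of 3 days higher (adjusted p = 0.467). Among the promoter factors it belonged to Mef2a (0.48) and Atf1 (-0.32), and among turnover genes to Cops5 (0.32) and Zfp36 (0.57), which binds unstable mRNAs. The neuronal JNK gene Mapk10 had the lowest p of the kinases at a log2 fold change of 0.75 (adjusted p = 0.146), followed by Prkaca, a catalytic subunit of protein kinase A, at 0.30.

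Of 23 genes listed as AP-1 targets, 14 were tested and 0 passed in any comparison. All mice were taken after 1 hr of exposure, and target levels at later times were not measured. At 100% heptanal against control their median log2 fold change was -0.17, with 5 of 14 above 0. The lowest p belonged to the synaptic pentraxin Nptx2, which was 15.8, 23.4 and 9.10 CPM in controls and 39.4, 41.1 and 27.7 CPM at 100% heptanal. Nptx2 did not overlap between these groups, and its log2 fold change was 1.22 (SE 0.23, adjusted p = 0.0829). The metallothionein Mt2 was next, at 0.54 (adjusted p = 0.227), and was higher than control on 3 of 3 days at 1% heptanal too (0.65, adjusted p = 0.999674).

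**Figure D5:**
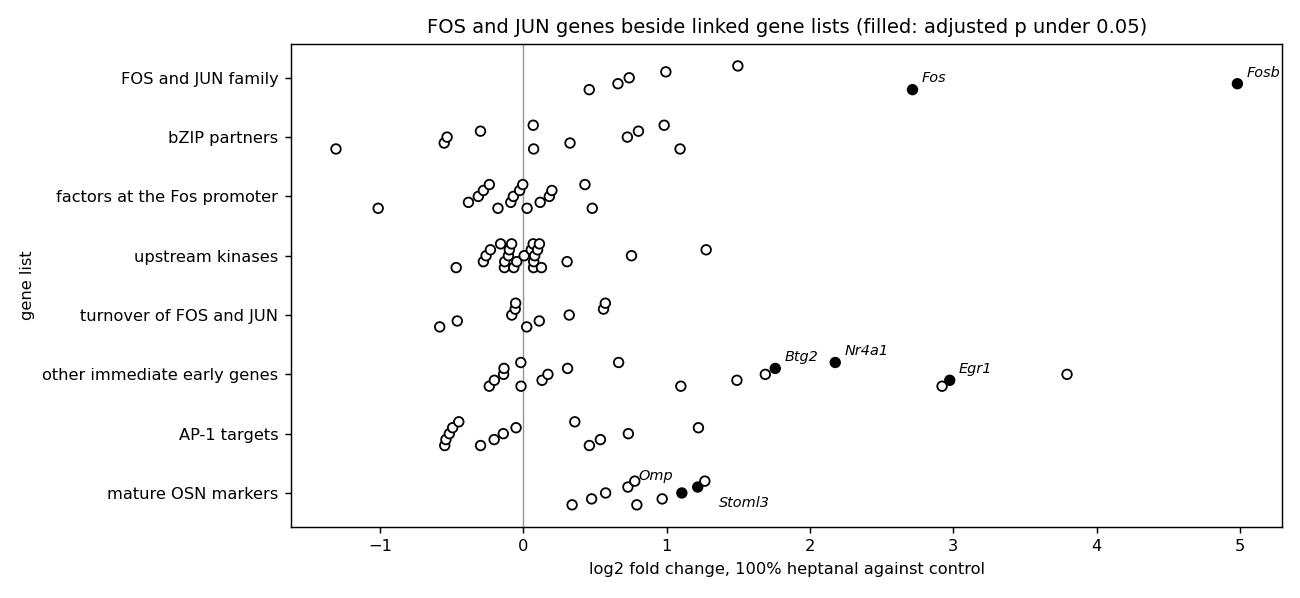
Log2 fold change at 100% heptanal against control of the FOS and JUN genes and of the genes tested in 7 linked lists, 1 point per gene; filled points passed the adjusted threshold and are named. Fos, Fosb, Egr1, Nr4a1 and Btg2 are filled, as are the OSN markers Omp and Stoml3, and no gene of the partner, promoter factor, kinase, turnover and target lists is.

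The genes most like Fos and Fosb over the 9 mice were found by Pearson's r of log2 CPM after the mean of each postnatal day was subtracted. For Fos they were Sirt2 (r = 0.989), Egr1 (0.988), Bcl2 (0.987), Fars2 (0.984) and Actr1b (0.977), of which Egr1 changed most, the others having log2 fold changes of 0.25 to 0.56 at 100% heptanal against control and not passing the test. For Fosb they were 2310061I04Rik (0.990), Hs3st1 (0.989), Tcte1 (0.989), Polg2 (0.988) and Lingo1 (0.987). Of these Hs3st1, which modifies heparan sulfate, rose by 1.54 on the log2 scale (adjusted p = 0.00739) and Lingo1 by 1.09 (adjusted p = 0.023). Of 12 fits that left out mice, the call was kept in 4 for Hs3st1 and in 3 for Lingo1, and it was lost for both without any 1 control mouse or the 100% mouse of postnatal day 21 or 18, without the mice of any day, and without the block. Within the family Fos was most like Junb (r = 0.960), ahead of Fosb (0.880), and least like Fosl2 (0.545). All these points share libraries and depth, and r does not take the size of a change into account. The difference between groups was not removed, so a gene that sets the 100% mice apart from the others can score high for that alone. The rises of Hs3st1 and Lingo1 are thus not separate from their r.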

How the data were processed

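RNA from pS6-IP of the OE was reverse transcribed with a poly-T primer, amplified by PCR without molecular identifiers and sequenced as single-end reads. Bowtie alignment to mm10 and gene counting by BEDTools, with new models for the olfactory receptor genes, were done by the authors, and a headerless table was deposited for each mouse. The columns were identified from their values and the study's methods. One deposited column was taken as counts of uniquely mapped reads and the last as estimated counts, to which the authors added multi-mapped reads shared out among genes, which were 23.9% to 30.5% of a mouse's total by this reading. Neither column is normalized.

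Estimated counts were rounded and fitted by the quasi-likelihood method of edgeR 4.0.16 (R 4.3.3; glmQLFit, glmQLFTest, TMM, default filterByExpr) on all 9 mice, with the postnatal day as a block and Benjamini-Hochberg adjustment over the 14930 genes tested of 23607. Standard errors are the size of a log2 fold change over the root of its F statistic. The block rests on the labels, which give 1 mouse of each group per day, and on the methods, which name littermates. Deviations from group means correlated at 0.155 to 0.730 in the 9 pairs of mice of the same day (mean 0.540) and at -0.746 to 0.449 (mean -0.253) in the 18 other pairs, so the ranges overlapped. Within a group these deviations sum to 0, so positive values on the same day bring negative ones in the other pairs. The mean of the other pairs is therefore no separate measurement. Replicates are separate mice, and every pair of mice of 1 group differed by more than sampling noise.

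Alternatives were no block, DESeq2 1.42.0, total counts without TMM, uniquely mapped counts, other filters, scaling by 5 OSN markers, and fits without each mouse or each day's mice. GENCODE M21 gave coordinates, and RefSeq of GRCm38.p6 gave promoters and exon lengths. The members, the gene lists and the tests were chosen with earlier results of these data known. Besides the members, the genes named are those with the lowest p in each list, at most 4 that passed or else 2, and the 5 most like Fos and Fosb. Precision is limited by 3 mice per group, and at low counts by counting error.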

Additional observations from a re-analysis of the deposited data

How the results depend on the processing

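The values of the 7 members in the 3 comparisons were recomputed under 19 other settings, 12 of which left out mice. Of 399 values, 368 kept their direction and their side of the threshold, 11 kept their direction but lost the call, 3 gained it and 17 changed sign. The number of members called at 100% heptanal against control was 2, and 1 without the replicate block. It was 1 to 2 when mice were left out, Fos being lost without the control mouse of postnatal day 22 or 21 or all mice of either day. Against 1% heptanal it was 2, 1 without the replicate block, and 0 to 2 when mice were left out: 0 without the 100% mouse of postnatal day 21 or all mice of that day, and 1, Fosb, without the mice of day 22. At 1% heptanal against control it was 0 under all settings. The cause of these losses was not tested, beyond the fewer mice in such fits. Scaling by 5 OSN markers, which moved the median of all genes to -1.04 at 100% heptanal against control, turned the log2 fold change there to -0.35 for Fosl2, -0.29 for Jun, -0.049 for Junb and -0.58 for Jund, and against 1% heptanal, with a median of -0.77, to -0.025 for Jun and -0.60 for Jund. At 1% heptanal against control Jun was at 0.068 without the block and 0.030 without TMM, and when mice were left out Jun ranged from -0.28 to 0.22, Junb from -0.15 to 0.10 and Fos from -0.60 to 0.052. Junb gained its call at 100% heptanal against control with DESeq2 (0.99) and without the filter on low counts (1.00, adjusted p = 0.0452), and with DESeq2 against 1% heptanal (1.04).

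The number of all genes called at 100% heptanal against control was 48, and 2 without the block, 28 without TMM, 76 without the filter, 266 with DESeq2, 9742 with scaling by OSN markers and 1 to 65 when mice were left out. Against 1% heptanal it was 12, and 2, 11, 25, 211, 6691 and 0 to 25 in the same order. At 1% heptanal against control it was 0, and 3 with DESeq2 and 1 without the filter. Depth limits Fosl1, with 6 to 49 counts per mouse, and Fosb in controls, with 14 to 25. Postnatal day and litter cannot be told apart.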
